A study of Mus musculus with 6 samples.

Results

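The genes described are Tead1, Tead2, Tead3 and Tead4, Yap1, Wwtr1, and Vgll2, Vgll3 and Vgll4: the TEAD transcription factors with their YAP, TAZ and Vestigial-like partners. They were 9 of 20659 named genes on the array, and they had been chosen from the processed signals of both groups, so their differences are descriptions with no test. All non-control probes whose RefSeq accession belonged to 1 of these symbols were taken, 12 probes in all, and each of the 12 was well above background on all 6 arrays. The cells were C2C12, a clonal line of mouse myoblasts that fuse into myotubes when serum is lowered. The si-SYISL cells had received small interfering RNA against SYISL, a long non-coding RNA, and the si-NC cells a control small interfering RNA. Both groups were grown in 10% fetal bovine serum, transfected, and held for 2 days in DMEM with 2% horse serum, and each had 3 single-colour Agilent arrays.

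TEAD proteins bind DNA but activate little alone. They recruit YAP or TAZ, which the kinases of the Hippo pathway hold in the cytoplasm when active, or Vestigial-like proteins, which bind TEAD at an overlapping surface. In muscle, TEAD proteins are known for binding the MCAT element, found in promoters of contractile genes.

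Within each group, the arrays of replicates 1 and 3 were closer to each other than repeated spots of a probe were within an array, judged on 340 probes printed 10 times. Chi-square per probe was 0.159 between these replicates in si-SYISL and 0.235 in si-NC, against 27.9 to 191 for the other 13 pairs of arrays. These replicates were therefore averaged into 1 sample, so that n is 2 per group. In the scanner headers, the arrays of replicates 1 and 3 of a group shared a barcode, and those of the other 13 pairs did not. Whether replicates 1 and 3 were separate hybridisations cannot be told here. Whether replicates came from separate cultures is not stated in the labels, and p-values here measure only the spread between these samples, which may be technical. Spots well above background made up 87.9% to 90.6% of si-SYISL arrays and 78.2% to 84.6% of si-NC arrays, and the number of arrays limits how precise any value is. The 75th percentile of the signal, by which each array was scaled, ran from 2019 to 2685 intensity units on si-SYISL arrays and from 2433 to 2832 on si-NC arrays. SYISL had no probe under the annotation used, and its knockdown could not be checked here. All 9 muscle markers examined were well above background on all 6 arrays, with summed signals of 98116 to 127682 units in si-SYISL and 79976 to 87556 in si-NC. They did not run one way: 4 of the 9 (Myh3, Acta1, Ckm and Tnnt3) read higher on all si-SYISL arrays than on any si-NC array, 4 overlapped, and Myod1 read lower, at 2620 to 3040 in si-SYISL and 4460 to 5290 in si-NC.

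Of the 9 genes, the 3 Vestigial-like genes and Tead2 were the ones with lower levels in si-SYISL cells, and Vgll4 differed most. Tead3 was slightly higher. Relative to the median difference of all features, those of Tead1 and Yap1 were positive but smaller than their SE, and Tead4 and Wwtr1 had overlapping samples. Before that median was subtracted, Tead1 differed by 0.27, Yap1 by 0.23 and Tead4 by 0.18. Only Wwtr1 had overlapping scaled samples then. Log2 differences are si-SYISL minus si-NC ± SE from a limma fit over 28555 features, with 2 samples in each group. They are given relative to the median difference of all features, which was 0.16 before this subtraction and 0.03 after quantile normalisation. The fit called 0 of the 28555 features, 0%, at a Benjamini-Hochberg adjusted p of 0.05, so 0 of the 9 genes were called, though other settings called some of them, as given with the processing alternatives. Without adjustment, 6460 features had p under 0.05. Of these, 4790 were higher, or 16.8% of all 28555 features, and 1670 were lower, or 5.85% of all 28555. These p-values and directions refer to the difference before the median of 0.16 was subtracted. Relative to the median, 4 of the 9 genes had their si-SYISL samples entirely below their si-NC samples, beside 29.7% of all features, and 3 of the 9 had them entirely above, beside 23.9%. A difference of at least 2-fold was reached downward by 1 of the 9, Vgll4, beside 1.8% of all features, and upward by 0, beside 2.23%. Because the genes were chosen on these signals, nothing is read from these counts. In RNA from whole cultures, fewer cells of a kind and less RNA per cell cannot be told apart.

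**Figure D1:**
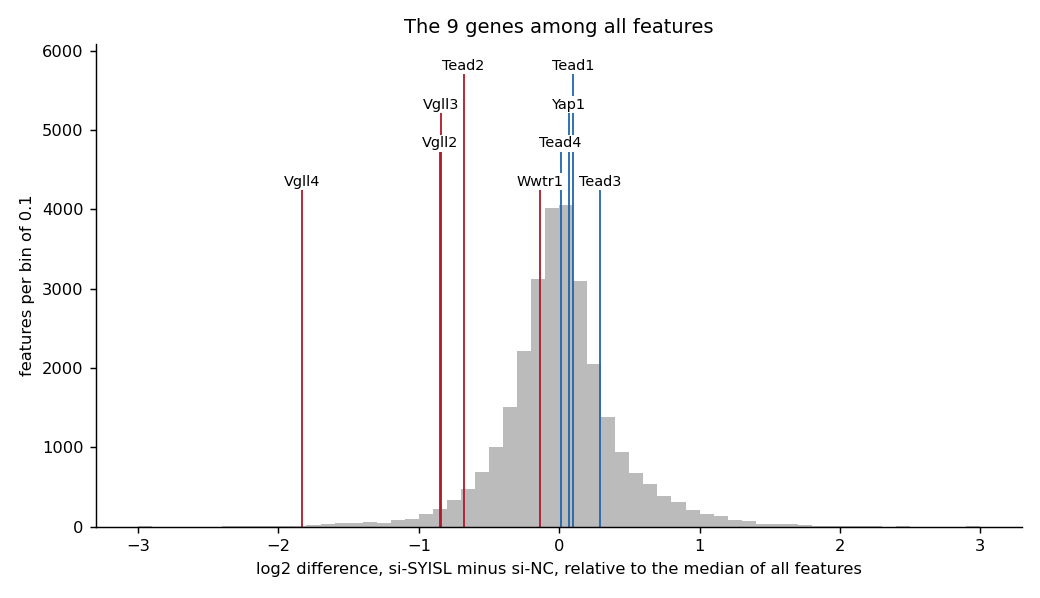
Grey bars count all 28555 features by log2 difference, si-SYISL minus si-NC relative to the median of all features, in bins of 0.1. Lines mark the 9 genes, red below 0 and blue above 0: Vgll4 stands at -1.83, Vgll2, Vgll3 and Tead2 between -0.85 and -0.68, and the other 5 between -0.14 and 0.29.

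Vgll4 carries TEAD-binding motifs and competes with YAP for TEAD, and is best known as a repressor of YAP activity. Its probe read 152, 116 and 178 intensity units on the si-SYISL arrays of replicates 1 to 3, against 465, 548 and 518 on the si-NC arrays. All si-SYISL arrays were far below all si-NC arrays, with no overlap. On the scaled log2 axis Vgll4 averaged -4.04 ± 0.11 in si-SYISL and -2.37 ± 0.00 in si-NC (SD, n = 2 samples each). The difference was -1.83 ± 0.12, a level 3.56-fold lower in si-SYISL relative to all features. It was -1.85 within the scan that held replicates 1 and 2 and -1.71 within the scan of replicate 3. Replicate 3 was near-identical to replicate 1, so its scan adds no sample, here and for the genes below.

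Vgll2, which is enriched in skeletal muscle and is known to promote myogenic differentiation with TEAD, had 7159, 5776 and 7833 units on si-SYISL arrays, against 11304, 13551 and 11718 on si-NC arrays. The si-SYISL arrays were all lower, without overlap. Its scaled log2 level was 1.53 ± 0.02 in si-SYISL and 2.22 ± 0.06 in si-NC (SD, n = 2 samples each), a difference of -0.85 ± 0.11 or 1.8-fold lower. Within the 2 scans the difference was -0.87 and -0.76.

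Vgll3, another TEAD cofactor, read 63.6, 73.8 and 70.2 units on si-SYISL arrays, against 113, 149 and 122 on si-NC arrays. Here too the groups did not overlap, on a dim probe. The scaled log2 level was -5.02 ± 0.35 in si-SYISL and -4.34 ± 0.13 in si-NC (SD, n = 2 samples each). The difference of -0.84 ± 0.21, 1.79-fold lower, had the widest error of the 9 genes. With normexp background correction it was -0.48, and it was -1.04 without si-SYISL replicate 2 and -0.63 without si-SYISL replicates 1 and 3. Vgll1, the remaining Vestigial-like gene and not among the 9, had 74.6, 77.5 and 76.2 units in si-SYISL and 75, 77.0 and 82.7 in si-NC on its brighter probe, with overlapping samples and a difference of 0.05 ± 0.18. Its dimmer probe, which did not pass the filter, read 22.6, 13.8 and 26.3 units in si-SYISL and 6.72, 9.37 and 8.83 in si-NC, and was above background on 2 of 3 si-SYISL arrays and 0 of 3 si-NC arrays.

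Among the DNA-binding members, Tead2 was the one with a clearly lower signal, and its 2 probes ran the same way. Tead2 is a TEAD factor of early embryos and neural tissue. Its brighter probe read 6903, 6660 and 7500 units on si-SYISL arrays, against 10220, 13039 and 10738 on si-NC arrays, so that every si-SYISL array was below every si-NC array. The difference was -0.68 ± 0.14, or 1.6-fold lower, and it was -0.69 within each scan. The other probe read 2369, 1988 and 2564 units in si-SYISL and 3784, 4485 and 3974 in si-NC, a difference of -0.84 ± 0.11.

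**Figure D2:**
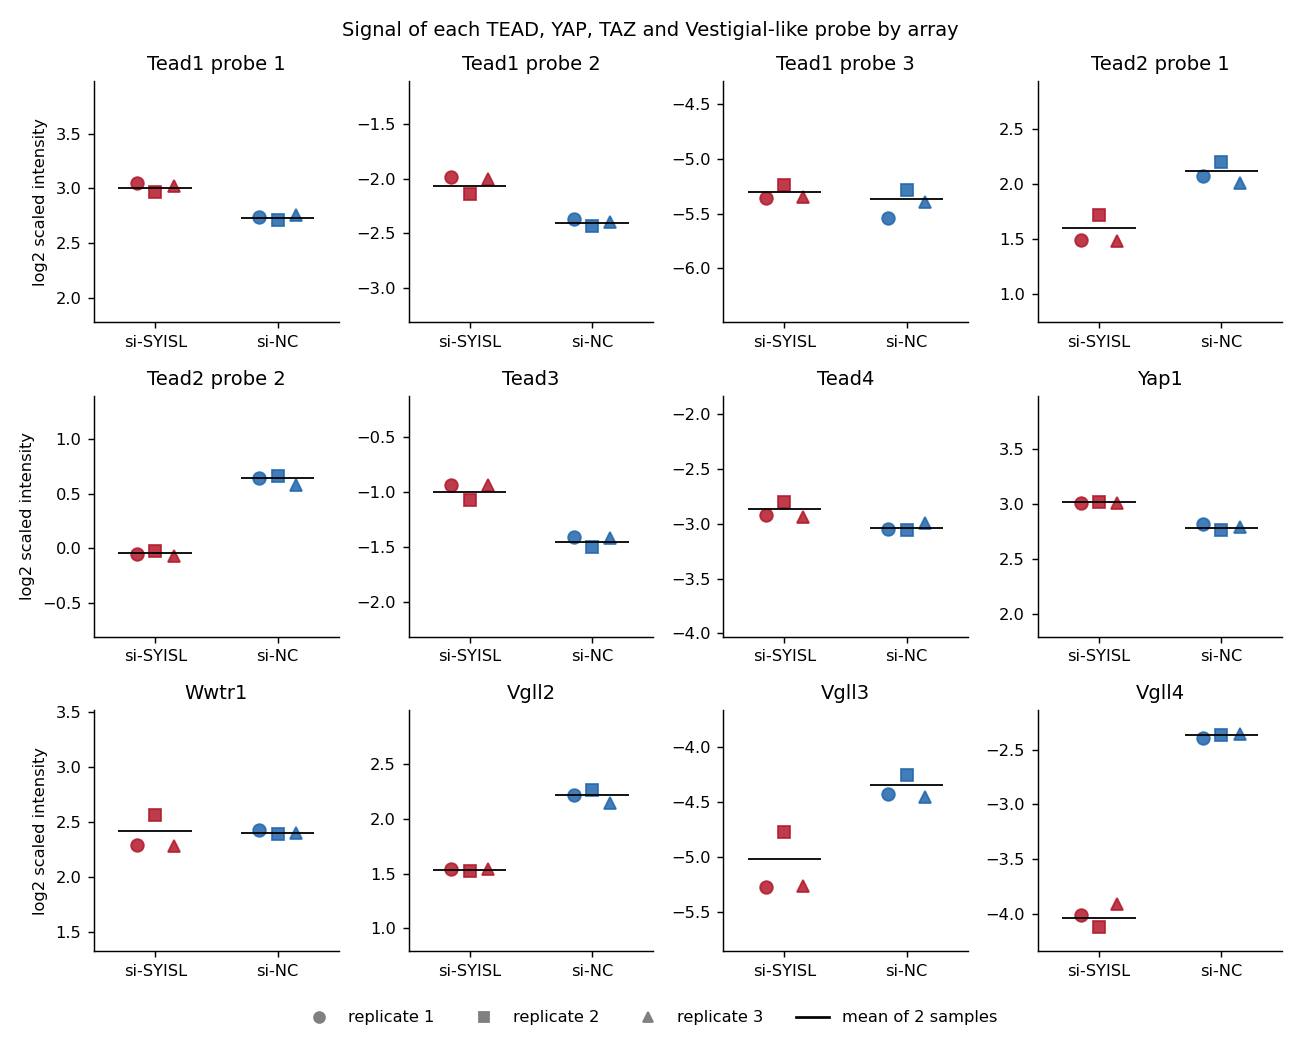
Log2 intensity of the 12 probes after scaling by each array's 75th percentile, 1 panel per probe, with 1 point per array (shape gives the replicate) and a line at the mean of the 2 samples, replicates 1 and 3 counting as 1. The Vgll2, Vgll3, Vgll4 and Tead2 panels have all si-SYISL points below all si-NC points.

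Tead1, a TEAD factor long known to bind MCAT elements of muscle genes, had 3 probes. The brightest read 20285, 15765 and 21750 units on si-SYISL arrays, against 16284, 18577 and 18084 on si-NC arrays, and these raw signals overlapped. After scaling, its log2 level was 3.00 ± 0.05 in si-SYISL and 2.73 ± 0.03 in si-NC (SD, n = 2 samples each), without overlap, and the difference was 0.10 ± 0.11. The other probes gave 0.18 ± 0.12 and -0.09 ± 0.13, the last from a dim probe with 53.4 to 65.8 units in si-SYISL and 52.2 to 73.0 in si-NC. The probes of Tead1 thus did not share a direction, and 2 of the 3 differences were smaller than their own SE.

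Tead3, a widely expressed TEAD factor, read 1283, 963 and 1396 units on si-SYISL arrays, against 913, 1003 and 994 on si-NC arrays. The signal of si-SYISL replicate 2 fell among the si-NC signals before scaling. Its difference of 0.29 ± 0.12, or 1.22-fold higher, was 0.29 and 0.32 within the 2 scans. Tead4, which myogenic factors activate in mouse C2C12 cells and which the trophectoderm of the embryo needs, had 324, 291 and 350 units in si-SYISL and 295, 339 and 336 in si-NC. Its scaled samples did not overlap, with a difference of 0.18 before the median of all features was subtracted. Relative to that median the samples overlapped, and the difference was 0.01 ± 0.12, with 0.03 in one scan and -0.11 in the other.

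Yap1 encodes the coactivator YAP. It read 19841, 16374 and 21660 units on si-SYISL arrays, against 17136, 19207 and 18398 on si-NC arrays. Raw signals overlapped, the scaled samples did not, and the difference was 0.07 ± 0.11. Wwtr1 encodes TAZ, the paralogue of YAP. It had 12022, 11914 and 12998 units in si-SYISL and 13084, 14821 and 14063 in si-NC, with a difference of -0.14 ± 0.14. In its raw signals the si-SYISL arrays were all lower, yet its samples overlapped relative to the median of all features. Neither coactivator gene differed by much more than its SE. The difference of Wwtr1 was -0.03 without si-SYISL replicates 1 and 3 and -0.23 without si-SYISL replicate 2. Without the same libraries the Tead1 difference was 0.04 and 0.18, and it was 0.17 with normexp background correction and after quantile normalisation. That of Yap1 was 0.04 without si-SYISL replicates 1 and 3, against 0.12 as the highest with any sample left out, and was 0.15 after quantile normalisation.

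**Figure D3:**
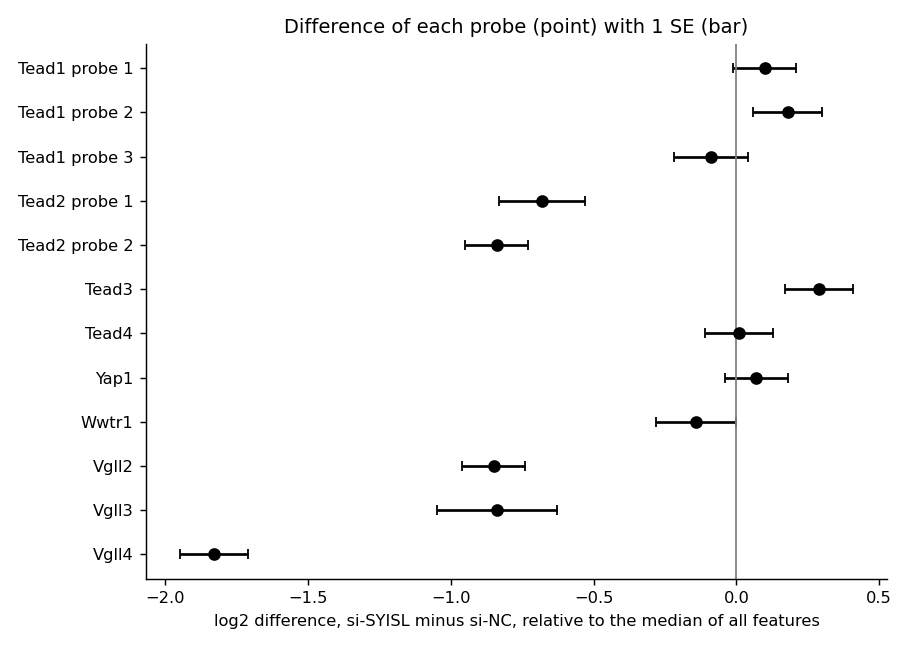
Points give the log2 difference of each probe, si-SYISL minus si-NC relative to the median of all features, and bars 1 SE with 2 samples in each group. The 5 probes of Tead2, Vgll2, Vgll3 and Vgll4 lie between -1.83 and -0.68, and the other 7 lie between -0.14 and 0.29.

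The 9 genes did not lie in 1 cluster of the genome. In GRCm38.p6, Tead4 (chr6:128227143-128300813) and Vgll4 (chr6:114860621-114970007) share a chromosome, as do Tead1 (chr7:112679356-112906784) and Tead2 (chr7:45215792-45233468). Vgll2 is at chr10:52022502-52028471 and Vgll3 at chr16:65815189-65866368. Of the other 3, Yap1 is at chr9:7931999-8004638, Wwtr1 at chr3:57455644-57575910 and Tead3 at chr17:28331671-28350805.

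RefSeq promoter sequences of build GRCm38.p6 matched 7 of the 9 genes, all but Tead1 and Tead4. The 250 bases before the start were searched on both strands for the MCAT core, GGAATG, and for CAGCTG, the E-box preferred by the MyoD family. At least 1 MCAT core stood before 5 of the 7 genes and a CAGCTG box before 0 of the 7, while 14.4% and 14.7% of all 27025 genes in the table held each, and 12.6% and 13% of all windows. Tead3, Yap1, Wwtr1, Vgll3 and Vgll4 had the MCAT match and Tead2 and Vgll2 did not, so the match did not follow the direction of the difference. The windows of the lower genes are shown for that reason, 5′ to 3′ on the gene's strand, with the MCAT core in capitals (CATTCC is the same element read from the other strand). For Vgll4, whose listed start lies inside the annotated gene, 30 bases around the match are given.
Tead2, chr7:45215542-45215791, plus strand, no match: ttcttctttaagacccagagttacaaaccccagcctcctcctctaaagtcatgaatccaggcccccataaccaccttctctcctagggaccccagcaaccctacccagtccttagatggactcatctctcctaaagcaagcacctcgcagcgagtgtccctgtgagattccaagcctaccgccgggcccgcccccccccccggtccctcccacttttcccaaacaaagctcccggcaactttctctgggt
Vgll2, chr10:52022252-52022501, plus strand, no match: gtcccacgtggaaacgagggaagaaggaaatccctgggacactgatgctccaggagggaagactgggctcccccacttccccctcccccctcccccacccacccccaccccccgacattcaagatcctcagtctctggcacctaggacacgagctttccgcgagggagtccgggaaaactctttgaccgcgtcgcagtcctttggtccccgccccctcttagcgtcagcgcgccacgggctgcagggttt
Vgll3, chr16:65814939-65815188, plus strand, match 63 bases before the start: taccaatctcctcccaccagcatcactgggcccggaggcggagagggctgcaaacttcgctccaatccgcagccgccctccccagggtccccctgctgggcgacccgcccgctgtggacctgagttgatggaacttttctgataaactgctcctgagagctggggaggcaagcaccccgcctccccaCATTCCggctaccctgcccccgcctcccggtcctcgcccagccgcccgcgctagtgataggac
Vgll4, chr6:114969268-114969297, minus strand, match 82 bases before the start: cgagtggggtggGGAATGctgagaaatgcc
A match describes letters in these windows and is not a site of binding.

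The Hippo kinases and their regulators act upstream of YAP and TAZ. Of 42 such genes chosen, 41 had a kept probe and 0 passed in either direction. Without adjustment, 4 of the 41 had p under 0.05 and were higher, beside 16.8% of all features, and 2 were lower, beside 5.85%. Their median was -0.19, with 12 above the median of all features and 29 below it, and it was -0.08 after quantile normalisation. Relative to the median of all features, the si-SYISL samples were entirely below the si-NC samples for 23, or 56.1%, beside 29.7% of all features. They were entirely above for 5, or 12.2%, beside 23.9%. Several genes counted as below were not lower before the median was subtracted: Sav1 (0.02), Taok2 (0.03), Stk38 (0.01) and Wtip (0.05). Others were barely lower then, such as Map4k4 and Strn (each -0.03) and Wwc2 and Btrc (each -0.06). Some were clearly lower then, such as Taok3 (-1.04). The share below thus depends on the median subtracted. P-values, adjusted or not, test each difference before the median of all features is subtracted. Lats1, a kinase that phosphorylates YAP and TAZ, differed by -1.48 ± 0.53 (limma adjusted p = 0.241), with 25.9, 58.9 and 27.2 units in si-SYISL and 117, 108 and 132 in si-NC. That difference was -0.76 with normexp background correction and -0.76 without si-SYISL replicates 1 and 3. Its partner kinase gene Lats2 differed by -0.25 ± 0.11 (adjusted p = 0.626) on 1 probe while the other probe gave 0.47. Nf2, which encodes merlin, an upstream activator of the kinases, differed by 0.06 ± 0.12 (adjusted p = 0.312), and the sign turned to -0.01 without si-SYISL replicates 1 and 3. The 4 genes with the smallest p were Dchs1 and Fat1, which encode giant cadherins, the kinase gene Taok3, and Rassf2. Dchs1 differed by 0.60 ± 0.11 (adjusted p = 0.107), by 0.20 with normexp and by 0.37 after quantile normalisation, and it was above background on only 1 si-NC array. Taok3 differed by -1.21 ± 0.17 (adjusted p = 0.119), Rassf2 by -1.17 ± 0.19 (adjusted p = 0.126) and Fat1 by 0.30 ± 0.13 (adjusted p = 0.164). Fat1 gave 0.17 without si-SYISL replicates 1 and 3.

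Genes that follow YAP and TAZ across human tumours were taken as a readout of the coactivators in mouse symbols. Of these, 3 (Amotl2, Lats2 and Ptpn14) were also in the Hippo list, so the 2 lists are not separate. All 22 targets had a kept probe and 0 passed in either direction. An unadjusted limma p under 0.05 was reached by 4 higher and 2 lower targets, beside 16.8% and 5.85% of all features. The median was -0.13, with 7 above the median of all features and 15 below, and it was -0.02 after quantile normalisation. Relative to the median of all features, the si-SYISL samples were entirely above the si-NC samples for 4 targets, or 18.2%, beside 23.9% of all features. They were entirely below for 12, or 54.5%, beside 29.7% of all features. Here too some genes counted as below were not lower before subtraction, such as Igfbp3 (0.02) and Rbms3 (0.04). Ccdc80 (-0.01) and Nt5e (-0.02) were barely lower then, while others were clearly lower, such as Gadd45a (-0.88). Tgfb2, a secreted TGF-beta ligand, had 2069, 1838 and 2289 units in si-SYISL and 5005, 7309 and 5498 in si-NC. It differed by -1.56 ± 0.16 (limma adjusted p = 0.0899), and its second probe by -0.82. Ccn1 (Cyr61), a matricellular target of YAP, differed by -0.53 ± 0.11 (adjusted p = 0.172), while Ccn2 (Ctgf), a common reporter of YAP, differed by -0.16 ± 0.11 (adjusted p = 0.994). Ankrd1, a muscle ankyrin-repeat gene, differed by -0.28 ± 0.12 (adjusted p = 0.533), and by -0.18 without si-SYISL replicate 2. Crim1 differed by 0.29 ± 0.12 (adjusted p = 0.162) and by 0.19 without si-SYISL replicates 1 and 3. Arhgef17 differed by 0.16 ± 0.11 (adjusted p = 0.201), and by 0.28 after quantile normalisation.

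Muscle genes with a known MCAT element lie downstream of the TEAD factors. In the same search of 250 bases, 5 of the 8 genes listed held the MCAT core and 4 a CAGCTG box. Over all genes the shares were 14.4% and 14.7%. The list was chosen for a known MCAT element, so nothing is read from its MCAT share. Actc1, Ckm and Tnnt1 held no MCAT core in their windows. All 8 had a kept probe and 0 passed in either direction. An unadjusted limma p under 0.05 was reached by 6 higher and 0 lower genes, beside 16.8% and 5.85% of all features. Here 7 were above the median of all features and 1 below, with a median of 0.65. Relative to that median of all features, 6, or 75%, had their si-SYISL samples entirely above, beside 23.9% of all features. Cardiac alpha-actin, Actc1, differed by 0.85 ± 0.14 (limma adjusted p = 0.104), and the slow myosin Myh7 by 0.86 ± 0.15 (adjusted p = 0.107). The troponin T genes Tnnt1 and Tnnt2 differed by 0.66 ± 0.11 (adjusted p = 0.102) and 0.65 ± 0.12 (adjusted p = 0.109). Ckm, muscle creatine kinase, differed by 0.65 ± 0.15 (adjusted p = 0.124), and skeletal actin, Acta1, by 0.56 ± 0.15 (adjusted p = 0.131). Acta1 and Ckm are also among the muscle markers given above, of which 4 of 9 read higher, 4 overlapped and Myod1 read lower, and the part of these markers in the result was not tested. The 3 lists were chosen with results of these data known, and none of the 3 is evidence of its own direction.

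**Figure D4:**
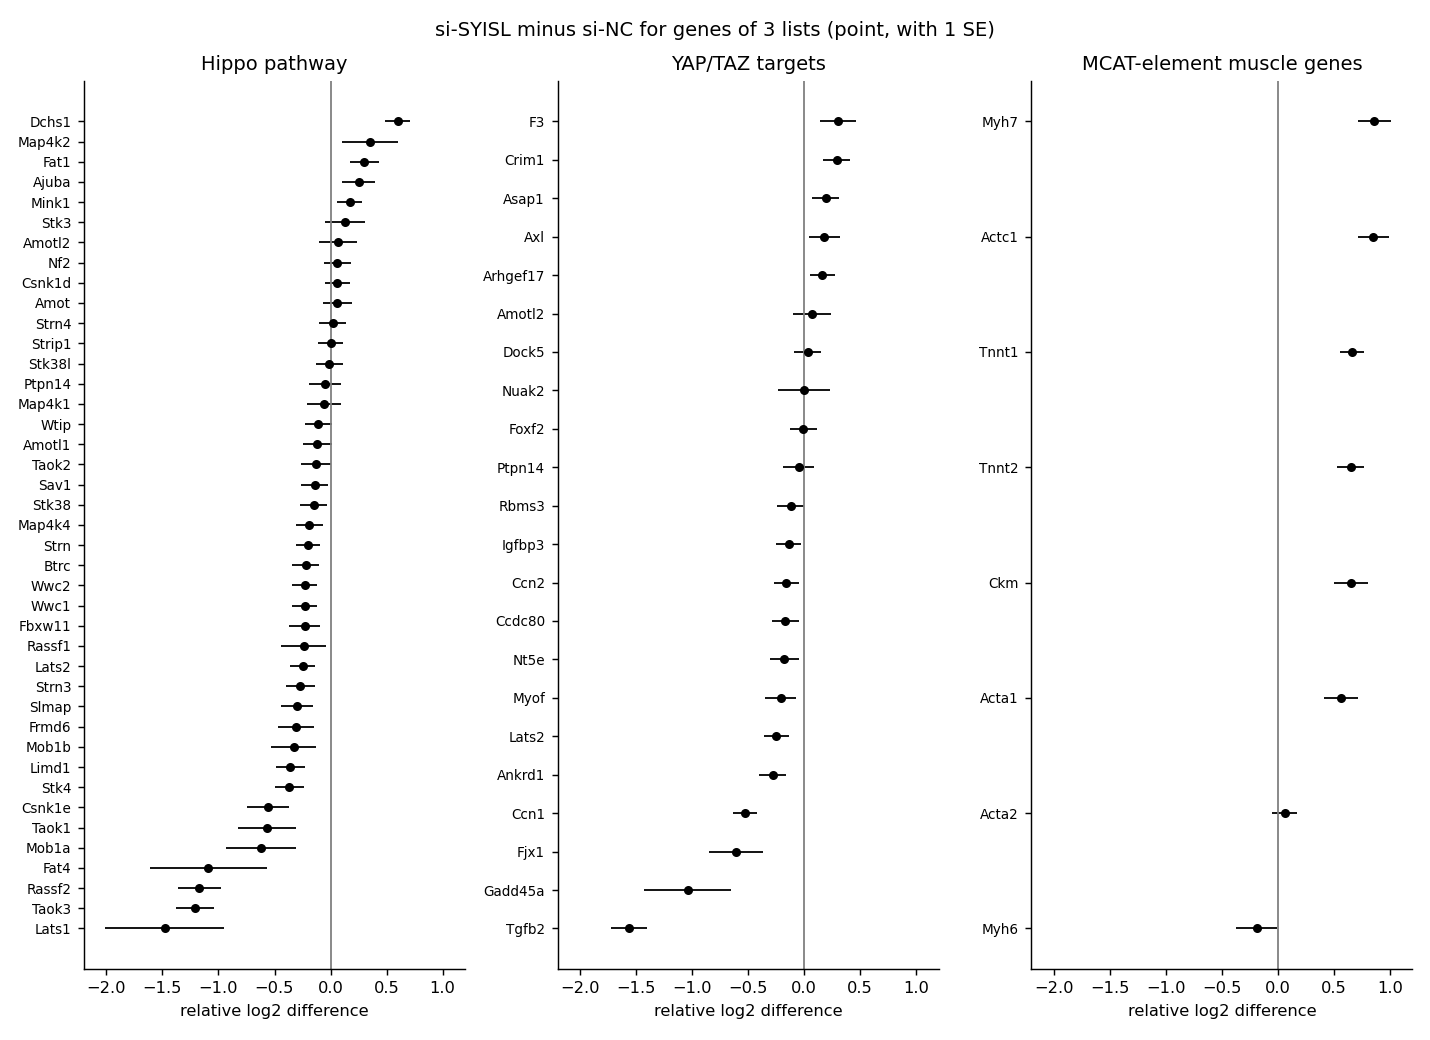
Each point is 1 gene's log2 difference, si-SYISL minus si-NC relative to the median of all features, with a bar of 1 SE, in 1 panel per list. Most Hippo regulators and YAP and TAZ targets lie left of 0 (29 of 41 and 15 of 22, with 3 genes in both lists). Of the genes with an MCAT element, 7 of 8 lie right of it. The median set to 0 was 0.16 before subtraction, against 0.07 and 0.08 in the brightest groups of features.

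Brightness moved with the differences over all features. Before subtraction, the median difference was 0.36 in the dimmest of 4 equal groups and 0.17, 0.07 and 0.08 in the brighter ones. Tead4, Vgll3 and Vgll4 lay in the second dimmest group, Tead3 in the next, and the other 5 in the brightest. Markers of other cells differed between the groups in part. Summed signals of neuronal markers were 6131 to 9575 units in si-SYISL and 9961 to 14414 in si-NC, all 4 well above background on all 6 arrays. Of these, Tubb3 and Map2 read lower on all si-SYISL arrays, while Snap25 (1720 to 4260 in si-SYISL, 329 to 1950 in si-NC) and Rbfox3 overlapped. For epithelial markers, of which 1 of 4 was above background on all 6 arrays, they were 473 to 503 in si-SYISL and 82 to 112 in si-NC, with Epcam and Cdh1 above background on 0 of the 3 si-NC arrays. Fibroblast markers, all 4 detected throughout, gave 396452 to 469864 in si-SYISL and 445459 to 515537 in si-NC, which overlapped, with Col1a1 higher on all si-SYISL arrays, Dcn and Pdgfra lower, and Col3a1 overlapping. Leukocyte markers, 3 measured, gave 879 to 1099 in si-SYISL and 1152 to 1297 in si-NC. Those of endothelium (2297 to 2977 in si-SYISL, 2503 to 2775 in si-NC) and adipocytes (1742 to 2296 in si-SYISL, 2061 to 2291 in si-NC) also overlapped, each with 3 of 4 detected on all 6 arrays. The part of these in the differences of the 9 genes was not tested.

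Over 18529 named genes and the 4 samples, the genes nearest to Vgll2 in pattern were Klf9, Wdr26 and Garnl3. Their Euclidean distances, after each gene's own mean was removed, were 0.053, 0.0824 and 0.0828 on the log2 scale, and 11 genes lay within 0.1. Klf9, Wdr26 and Garnl3 differed by -0.84, -0.79 and -0.87, close to Vgll2 as the choice requires. Tead4, which hardly differed relative to the median of all features, had 815 genes within 0.1.

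Across 16 other ways of processing or leaving out samples, 8 of the 9 genes kept their sign and Tead4 did not. Vgll4 ranged from -1.94 to -1.35, Vgll2 from -0.90 to -0.73, Vgll3 from -1.04 to -0.48 and Tead2 from -0.77 to -0.56. Tead3 ranged from 0.20 to 0.40, and Tead4 from -0.01 to 0.05. The value nearest 0 came from normexp background correction for Vgll4 and Vgll3 and from quantile normalisation for Vgll2 and Tead2. The 4 lower genes kept their sign in every setting tried. Several settings, among them the variance trend and the replicate block, change the SE and not the difference, so the sign was fixed there.

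**Figure D5:**
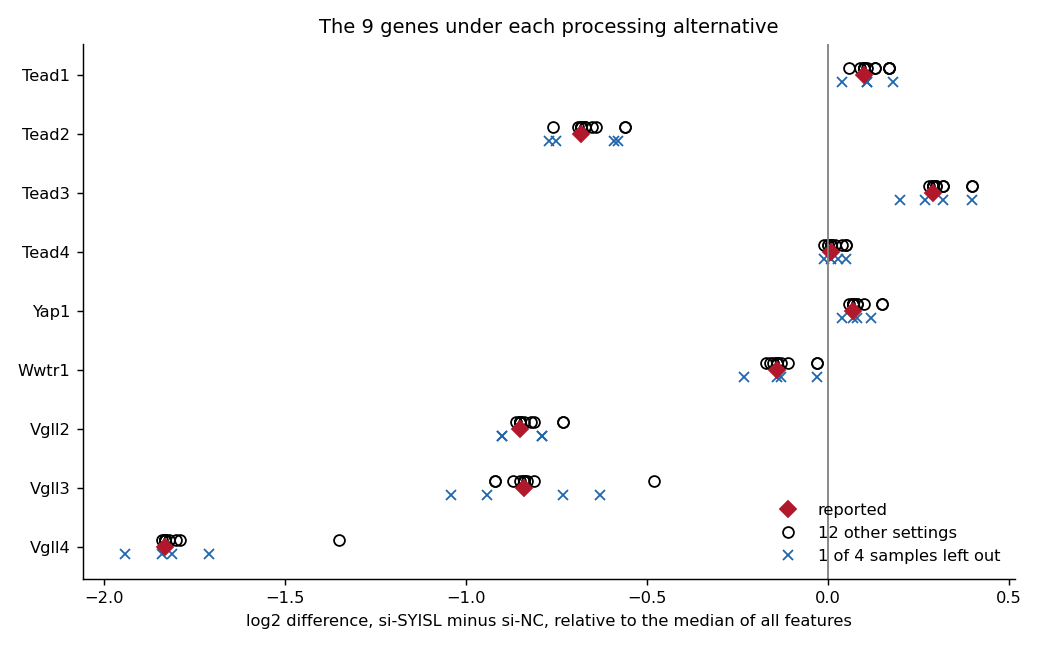
Points give each gene's log2 difference, si-SYISL minus si-NC relative to the median of all features, in the reported fit (diamonds), under 12 other settings (circles) and with 1 of 4 samples left out (crosses). The 4 lower genes stay below 0 in each, Vgll4 between -1.94 and -1.35, and Tead4 crosses 0.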

How the data were processed

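RNA from 6 C2C12 samples, 3 si-SYISL and 3 si-NC, was labelled with Cy3 from 1 µg each. The deposited scanner files hold intensity as the processed signal, background-subtracted within each array, and 0 or 1 flags (unit other) per spot, per the file headers. Feature Extraction was version 11.0.1.1 per the file headers and 10.5.1.1 per the submitters' processing notes. Log2 values from the deposited series matrix served as an alternative.

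Each of the 44397 spots per array was read with Python 3.11.15 (pandas 2.3.3, numpy 2.4.6) and R 4.3.3 (with the data.table package, version 1.17.8), and figures used matplotlib 3.10.9. Control and flagged outlier spots were left out. From the log2 signals the 75th percentile of their array was subtracted, and a probe's spots were averaged. Gene names came from RefSeq accessions and GRCm38.p6 symbols, and paired 27234 of 39429 probes with 20659 genes. A probe was kept if, in either group, all 3 arrays flagged it as well above background, and a gene was represented by its brightest kept probe, giving 28555 features (18635 named). Array coordinates were not used.

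Limma 3.58.1 (lmFit, eBayes) gave differences, SE and two-sided p-values, adjusted over all features by Benjamini-Hochberg with a threshold of 0.05, with 2 residual and 2.37 prior degrees of freedom. On simulated data with independent normal noise, the fit was checked only for returning the planted differences on average. That check does not cover error rates. Replicates 1 and 3 of each group were averaged. The members and lists were chosen with earlier results of these data known. Named list genes were the 4 with the smallest p in each list plus Ccn2 (Ctgf), Ccn1 (Cyr61), Ankrd1, Lats1, Lats2, Nf2, Ckm, Acta1 and Tnnt2. Vgll1 was named as the remaining Vestigial-like gene. Patterns were compared for Tead4 and Vgll2, taking the 3 nearest genes, and those nearest to Tead4 are not reported here. Alternatives were normexp (offset 50, on median pixel intensity), quantile and median scaling, the series matrix, 2 filters, mean of probes, every probe, a robust variance trend, the 6 arrays as 6 samples, replicate and scan blocks, and each sample left out. A single scan held replicates 1 and 2 of either group and another held replicate 3.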

Additional observations from a re-analysis of the deposited data

How the results depend on the processing

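The main count of 0 called features was 183 with normexp background, 1 with median scaling, 46 with a filter on all 6 arrays, 903 with a robust variance trend, 83 with scan as a block and 9762 with the 6 arrays as 6 samples, which counts near-identical replicates separately. Leaving out a sample gave 0 to 1371, with 1371 without si-NC replicates 1 and 3, 269 without si-NC replicate 2, and 0 without either si-SYISL sample. The lone sample is then assumed to vary like the other group. Hippo regulators called numbered 2 with the trend and 9 with the 6 arrays, and 0 to 1 with a sample left out. For YAP and TAZ targets the numbers were 1 with normexp, 1 with the trend, 9 with the 6 arrays and 0 to 1 with a sample left out. For genes with an MCAT element they were 2 with normexp, 5 with the trend and 7 with the 6 arrays. Of the 9 genes themselves, which were chosen on these signals, Vgll4 was called with normexp (beside 0.641% of all features), the filter on all 6 arrays (0.183%), the scan block (0.291%), and without si-NC replicates 1 and 3 (4.8%) or si-NC replicate 2 (0.942%). Vgll2 and Vgll4 were called with the trend (3.16%), and 7 of the 9 with the 6 arrays (34.2%). The median of the 9 genes, -0.14, was -0.03 under quantile normalisation and with the series matrix, and -0.23 to -0.03 with a sample left out. Tead4, at 0.01, reversed to -0.01 with normexp and without si-SYISL replicate 2. The cause was not tested. Samples with the same replicate numbers correlated at -0.03 in their deviations from the group means, over 28555 features. With 2 samples in each group, both pairs give this same value, so the second pair adds nothing. The numbers were not taken to pair the samples, and a fit with the replicate block called 0 features. Low signal over background limits the dim Vgll3 probe, which had the widest SE of the 9 genes, 0.21.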
